A study of Mus musculus with 20 samples.

Results

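The genes of ribosome biogenesis and the nucleolus were followed here in thymic precursors of intraepithelial lymphocytes (IELPs), through the gain of CD122 and of T-bet and after deletion of C-myc. The list holds 42 genes, all of which were counted, out of 25246 genes listed in at least 1 library. The list follows what the products of the genes do. In the 1413 cells kept, the 42 genes together gave 50956 transcripts.

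A ribosome is assembled in the nucleolus. RNA polymerase I transcribes the ribosomal RNA precursor, small nucleolar ribonucleoproteins (snoRNPs) guide its chemical modification, and assembly factors cut, fold and join the RNA with ribosomal proteins into a small and a large subunit. The demand for ribosomes is high in cells that grow and divide, and many of these genes are known targets of the transcription factor C-Myc. CD122 is a receptor chain for IL-2 and IL-15, and T-bet is a transcription factor that IELPs come to express.

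Single cells of 3 genotypes were sorted into 96 wells per library and measured by CEL-Seq2, which counts the 3′ ends of transcripts with molecular identifiers. The first was TBGR, sampled at 4 weeks, in which ZsGreen reports T-bet and C-myc is intact. It gave 2 libraries for each of the 4 sorts. Cells without either protein (CD122-T-bet-) are called CD122- cells here, since no sort held CD122- cells with T-bet. Cells with CD122 were sorted as CD122+T-bet-, and by a medium or a high reporter signal as T-bet int and T-bet high. TBGR C-myc fl/fl, labelled as 2 weeks, whose C-myc alleles are floxed and not deleted, gave 8 libraries that each held 2 populations, 4 libraries with both T-bet- populations and 4 with both kinds of T-bet+ cells. TBGR C-myc D/D Cd4, also labelled as 2 weeks, in which Cre driven by Cd4 deletes C-myc in cells that express or have expressed Cd4, gave 2 libraries for each T-bet- population. All 3 genotypes carried the T-bet reporter, and thymocytes bearing CD4 or CD8 were depleted before the sort. The sources differ on NK1.1, which the series' design text gives as present on the sorted cells and the study's methods as absent. Because Cre follows Cd4, whether C-myc was lost in a cell that never expressed Cd4 is not given. TBGR cells were taken at an older age, so genotype and age cannot be told apart between them and the C-myc genotypes, and no difference there is read as one of genotype. On the number of animals the sources differ too: the design text speaks of 1 mouse per genotype, and the methods of mice in the plural, aged between 2 and 3 weeks in the C-myc experiment. The labels tie no library to an animal. Libraries are therefore not taken as replicates, no test between genotypes or populations was run, and their values are given side by side.

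Passing cells had at least 2000 transcripts. Over the 20 libraries the median passing cell held 3805 to 7076 transcripts, and the sum per library between 233454 and 775264. Wells marked as empty held medians of 8 to 105.5 transcripts, and in all 1920 of them the 42 genes gave 333 transcripts, which is 0.173 per well against 14.3 to 53.8 per cell in the sorted groups. Each cell barcode marked a cell in 10 libraries, which the library index keeps apart. The sorted markers followed the gates: Il2rb, which encodes CD122, and Tbx21, which encodes T-bet, summed to between 3.92 and 9.88 transcripts per 1000000 counted (CPM) in the 3 CD122- groups and to between 225 and 680 CPM in the 7 CD122+ groups. Of a list of 5 T cell genes, 4 were listed, and those 4 had transcripts in each of the 10 groups. The C-myc fl/fl library 4 of T-bet- cells stood apart. Ribosomal protein genes gave 4.53% of its transcripts in CD122+T-bet- cells, against 10.4% to 11.3% in the other 3 libraries, and the median cell there had 3298 transcripts. Library 2 of the TBGR T-bet high cells stood apart as well, with values given beside the last step. Results that rest on these libraries are given with and without them.

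Npm1, which encodes the nucleolar chaperone nucleophosmin, gave 12487 transcripts or 24.5% of the set. Ncl, which encodes nucleolin, a major RNA-binding protein of the nucleolus, gave 8334 or 16.4%. Because only 3′ ends are counted, a count does not scale with the length of a gene. The next 10 by count were Nop56 with 3001 transcripts and Nop58 with 2086, both core proteins of the box C/D snoRNPs, Pa2g4 with 1812, Ddx21 with 1696, Tcof1 with 1686, Dkc1 with 1405, Fbl with 1404, Nop10 with 1199, Nolc1 with 1171 and Gnl3 with 1036. The least counted was Rrp12 with 136. By role, the best-counted genes were Npm1 among the 6 nucleolar scaffold and growth genes, Tcof1 among the 5 genes of RNA polymerase I transcription, Nop56 among the 4 of the box C/D snoRNP, Dkc1 among the 4 of the box H/ACA snoRNP, Ddx21 among the 9 of the small subunit and Ddx18 among the 14 of the large subunit. In the reference annotation (GENCODE vM21, GRCm38), Npm1 lies on chromosome 11 from 33152287 to 33163206 on the minus strand, Ncl on chromosome 1 from 86344719 to 86359400 on the minus strand, and Nop56 on chromosome 2 from 130274430 to 130279313 on the plus strand. Reads that mapped to several genes were discarded by the authors, so genes with processed pseudogenes, Npm1 among them, can be undercounted.

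The summed level of the 42 genes was lowest in C-myc D/D Cd4 CD122+T-bet- cells, at 2737 CPM with an exact 95% Poisson interval of 2617 to 2860, and highest in C-myc fl/fl T-bet int cells, at 7342 CPM (7161 to 7526). Intervals of this kind cover counting error only, and in most groups the libraries spread more widely than they do. In the TBGR genotype the set stood at 4845 and 3445 CPM in the 2 libraries of CD122- cells, 6268 and 5560 CPM in CD122+T-bet- cells, 6823 and 6883 CPM in T-bet int cells and 5111 and 3988 CPM in T-bet high cells. Its level thus rose at both of the first steps and fell at the last, with no overlap between the libraries of neighbouring populations. In the C-myc fl/fl genotype the 4 libraries read 8194, 2391, 7543 and 4299 CPM in CD122- cells, 7657, 6888, 7619 and 3692 CPM in CD122+T-bet- cells, 7853, 7841, 6613 and 6385 CPM in T-bet int cells and 5371, 3979, 4727 and 4230 CPM in T-bet high cells. The first 3 of these populations overlapped, and T-bet high cells lay below T-bet int cells in each library. In the C-myc D/D Cd4 genotype the libraries read 4479 and 7219 CPM in CD122- cells and 2607 and 2838 CPM in CD122+T-bet- cells.

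**Figure D1:**
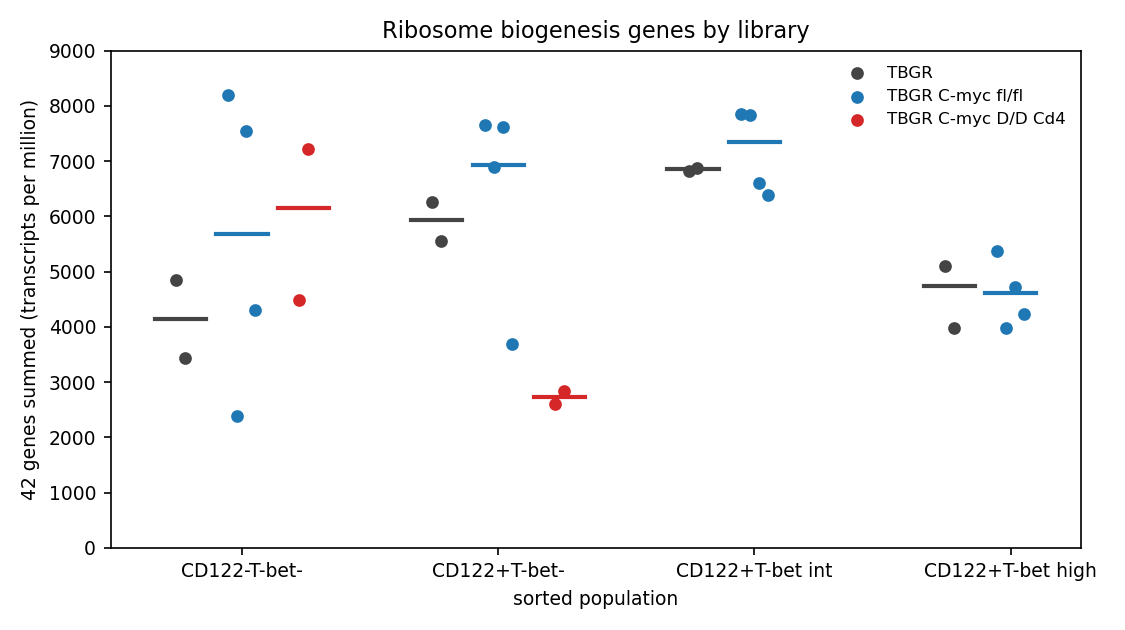
Summed level of the 42 ribosome biogenesis genes in CPM (y axis) by sorted population (x axis). Each point is 1 library, bars are the level over all cells of the group, and colours are the 3 genotypes. The 2 C-myc D/D Cd4 libraries of CD122+T-bet- cells, at 2607 and 2838, lie below all 4 C-myc fl/fl libraries of these cells.

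The genes did not share a single pattern. Across the 10 groups of genotype and population, the log2 level of each gene was set against that of the other 41 summed, as a description of these groups, which share libraries. Pearson's r was 0.97 for Nop56, 0.95 for Nhp2, 0.95 for Gnl3, 0.94 for Mybbp1a and 0.94 for Gar1, the genes closest to the rest. It was -0.22 for Utp20, a small subunit factor, and -0.08 for Wdr12, a large subunit factor, which followed the set least. Wdr12 was highest in TBGR CD122- cells, at 110 CPM, where Npm1 was at 848 CPM against 1576 CPM in T-bet int cells.

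**Figure D2:**
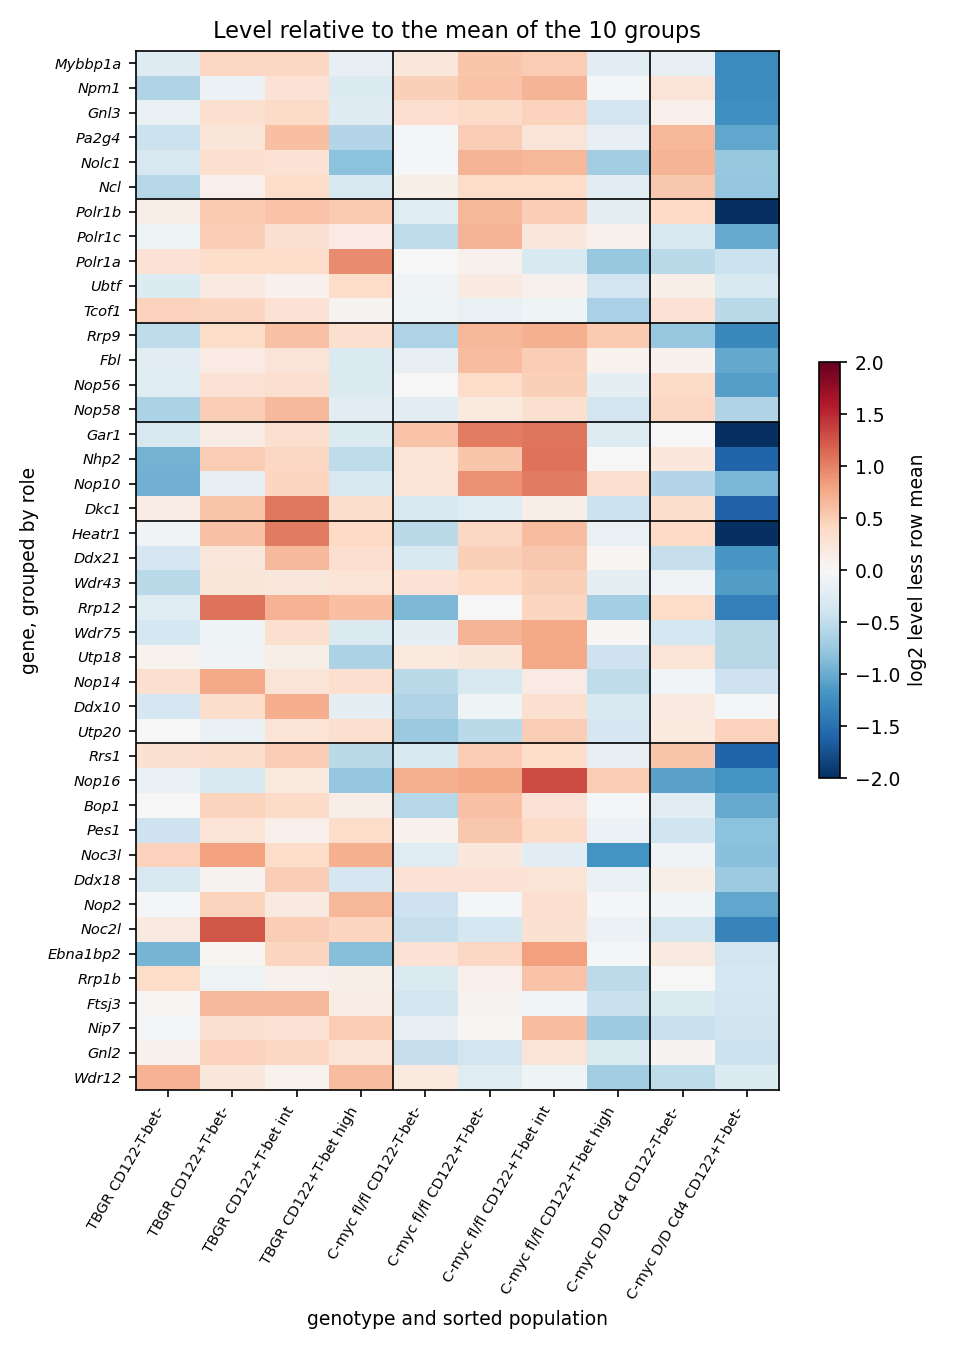
Level of each of the 42 genes (rows, grouped by role) in the 10 groups of genotype and population (columns), as log2 CPM after adding 0.5 transcripts, less the mean of the row; colours end at -2 and 2. The last column, C-myc D/D Cd4 CD122+T-bet- cells, is the lowest of the 10 for 25 of the 42 genes, while Utp20 and Ddx10 are not low there.

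The comparison of C-myc D/D Cd4 with C-myc fl/fl cells of the same age addressed what loss of C-Myc changes in IELPs. Myc itself gave 14 and 4 transcripts in the 2 C-myc D/D Cd4 libraries of CD122+T-bet- cells, or 44.5 and 9.96 CPM, against 16, 28, 30 and 1 in the 4 C-myc fl/fl libraries, or 73.8, 125, 135 and 10.6 CPM. In CD122- cells it gave 5 and 14 transcripts against 13, 3, 14 and 4. Myc libraries of the 2 genotypes overlapped in both populations. The exons that Cre removes are not given in the sources used here, so a 3′ tag from an allele already cut may still be counted, and these values are a weak check of the labels.

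In CD122+T-bet- cells the ribosome biogenesis genes were 2.53-fold lower with C-myc deleted, 2737 CPM against 6924 CPM, a log2 ratio of -1.34 with a counting interval of -1.41 to -1.26. The C-myc D/D Cd4 libraries, at 2607 and 2838 CPM, did not overlap the C-myc fl/fl libraries, at 3692 to 7657 CPM. Genes were called where the ratio of the sums was at least 1.5 and the libraries of both groups did not overlap, among genes with at least 50 transcripts over both groups. A gene is called tested where it had that many transcripts, and no p-value is attached to it. Of the 30 members tested, 15 were lower and 0 were higher. Over all 4201 genes tested by this rule, 9.83% were lower and 22.2% were higher. The median log2 ratio was -1.37 over the 30 members and 0.12 over all genes tested, and 29 of the 30 had a ratio below 0.

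All 6 nucleolar scaffold and growth genes were lower. Npm1 was at 429 and 630 CPM in the deleted libraries and at 2245, 1839, 2080 and 987 CPM in the C-myc fl/fl libraries, a log2 ratio of -1.82 (-1.99 to -1.66). Ncl was at 486 and 533 CPM against 1069, 1144, 1407 and 552 CPM, a log2 ratio of -1.14 (-1.32 to -0.96). For both, the highest deleted library lay below the lowest intact one, for Ncl by little. Mybbp1a, a nucleolar protein that binds transcription factors of the Myb family, was at 54.0 and 29.9 CPM against 194, 111, 149 and 106 CPM. For it too, every deleted library lay below every intact one. Pa2g4, also called Ebp1, a growth-regulating protein that binds ribosomal RNA, was at 88.9 and 87.1 CPM against 286, 258, 280 and 117 CPM. Gnl3 or nucleostemin, a GTP-binding protein of the nucleolus, was at 31.8 and 54.8 CPM against 161, 178, 99.2 and 74.3 CPM. Nolc1, a chaperone that carries snoRNPs, was at 76.2 and 62.2 CPM against 198, 191, 217 and 84.9 CPM. Each of these 3 was again lower in both deleted libraries than in any intact one, and in all 6 genes library 4 was the lowest of the intact libraries.

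The proteins of the snoRNPs were lower as well, 3 of 3 tested for the box C/D class, which guides methylation of ribosomal RNA, and 4 of 4 for the box H/ACA class, which guides the change of uridine to pseudouridine. Fbl, the methyltransferase fibrillarin, was at 73.0 and 69.7 CPM against 221, 223, 293 and 74.3 CPM. Nop56 was at 178 and 117 CPM against 401, 436, 415 and 255 CPM, and Nop58 at 105 and 162 CPM against 217, 280.5, 248 and 170 CPM. Nop58 was the least changed of the 15, with a log2 ratio of -0.80 (-1.17 to -0.44), and both Fbl and Nop58 lay just under library 4. Dkc1, which encodes dyskerin, the pseudouridine synthase, was at 34.9 and 47.3 CPM against 92.2, 98.0, 162 and 53.0 CPM. Nop10, a small partner of dyskerin, was at 69.9 and 57.3 CPM against 281, 205, 230 and 138 CPM. Nhp2 gave 15 transcripts in all against 73, with a log2 ratio of -2.17 (-3.11 to -1.39). Gar1 gave 1 and 5 transcripts in the deleted libraries against 25, 20, 16 and 6, a log2 ratio of -3.30 (-4.90 to -2.20), which was the largest among members tested and rests on few transcripts. Summed by role, the box H/ACA genes had a log2 ratio of -1.95 (-2.29 to -1.63), the scaffold and growth genes -1.54 (-1.65 to -1.43) and the box C/D genes -1.32 (-1.53 to -1.11).

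The RNA polymerase I genes and the assembly factors of the subunits were lower by less. Summed, they had log2 ratios of -0.73 (-1.03 to -0.44) for RNA polymerase I, -0.99 (-1.23 to -0.75) for the small subunit and -0.85 (-1.06 to -0.65) for the large subunit. Of 5 small subunit genes tested, 2 were lower, the RNA helicase Ddx21, at 85.8 and 67.2 CPM against 323, 209, 226 and 138 CPM, and Wdr75, at 31.8 and 17.4 CPM against 46.1, 44.5, 81.2 and 53.0 CPM. None of the 3 RNA polymerase I genes and none of the 9 large subunit genes tested was past both criteria. Tcof1, which encodes treacle, a cofactor of RNA polymerase I, was at 92.1 and 139 CPM against 175, 205, 122 and 74.3 CPM, with overlap and a log2 ratio of -0.39 (-0.81 to 0.02). It gave the most transcripts of the RNA polymerase I genes in both groups, so their sum leans on a gene that changed less than the sum. Several of the others had lower sums but overlapped C-myc fl/fl library 4: Ddx18, an RNA helicase of the large subunit, was at 92.1 and 39.8 CPM against 166, 138, 131 and 10.6 CPM. Polr1c, a subunit that RNA polymerases I and III share, was at 22.2 and 22.4 CPM against 55.3, 107, 85.7 and 10.6 CPM. Ddx10, an RNA helicase of the small subunit, was the only tested member with a ratio above 0, at 0.05 (-0.59 to 0.69). The 12 members under 50 transcripts here were Polr1a, Polr1b, Rrp9, Utp18, Utp20, Heatr1, Rrp12, Nop2, Nop16, Noc2l, Noc3l and Rrs1. Polr1b, the second largest subunit of RNA polymerase I, and Heatr1, a small subunit factor, gave 1 transcript each in 137 deleted cells, against 18 and 13 in 122 intact cells.

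Library 4 of the C-myc fl/fl T-bet- cells decided several of these calls. Without it, a choice made after seeing the data, 21 of 30 members were lower, while 21.6% of all genes tested were, and the log2 ratio of the set was -1.43. The 21 then included Polr1c, Wdr43, Bop1, Pes1, Ebna1bp2 and Ddx18. Other genes of ribosome biogenesis, 114 of which are listed and are not members, had a median nearer to 0. With all libraries, 17 of the 55 tested were lower and 3 higher, with a median log2 ratio of -0.51. Among those lower were Exosc7, a subunit of the RNA exosome, Ruvbl1, an ATPase of snoRNP assembly, and Rsl24d1, a large subunit factor. Those higher were Gltscr2, Nvl and Ddx47.

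**Figure D3:**
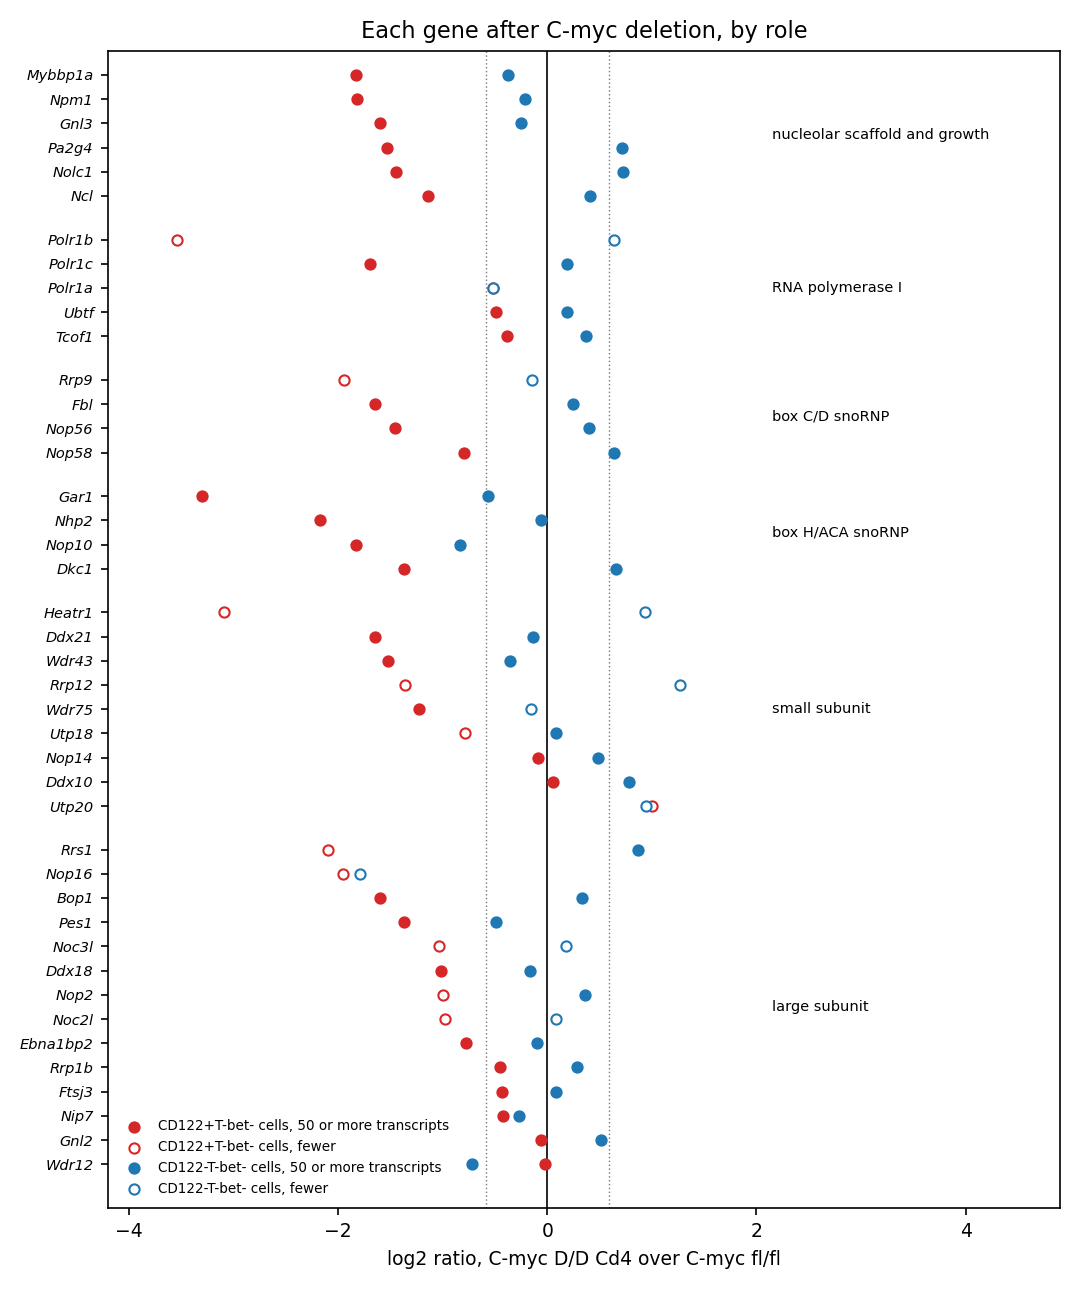
Log2 ratio of each gene, C-myc D/D Cd4 over C-myc fl/fl (x axis), by gene and role (y axis), in CD122+T-bet- cells (red) and CD122- cells (blue); open points have fewer than 50 transcripts over both groups, and dotted lines mark a ratio of 1.5. Red points lie left of 0 for 29 of the 30 genes tested, and blue points lie on both sides, 19 of 32 above 0.

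Other properties of the cells differed along with the set. Ribosomal protein genes, which are not members, made up 4.56% of transcripts in the deleted and 9.94% in the intact CD122+T-bet- cells. A list of genes of S phase and of G2 and M phase summed to 1595 CPM against 5463 CPM. Genes of gamma delta T cells, 4 of 4 listed and Trdv4 at 0 in both groups, summed to 724 to 752 CPM in the deleted and 131 to 567 CPM in the intact libraries. Genes of myeloid or dendritic cells, 4 of 5 listed and Itgax and Csf1r at 0 in both groups, summed to 219 to 284 CPM against 158 to 227 CPM. Those of regulatory T cells, 2 of 2 listed and neither at 0, summed to 44.5 to 49.8 CPM against 0 to 67.7 CPM. The T cell list summed to 1798 to 2079 CPM in the deleted and 615 to 1186 CPM in the intact libraries. Genes of NKT cells, 2 of 2 listed and neither at 0, summed to 15.9 to 22.4 CPM against 26.7 to 64.5 CPM. For both of these lists the libraries of the genotypes did not overlap. The B cell genes Cd79a, Cd79b and Ms4a1 summed to 12.7 to 147 CPM in the deleted and 0 to 18.4 CPM in the intact libraries, and to 22.4 to 260.5 CPM and 0 to 15.9 CPM among cells with cell cycle transcripts. Of their 63 transcripts in deleted cells, 55 were in 1 cell. Without the 7 deleted and 8 intact cells that held such a transcript, a choice made after seeing the data, the log2 ratio of the set was -1.38. B cell genes aside, the part of these marker lists and of the ribosomal protein genes in the result was not tested.

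Since C-Myc binds the E-box CACGTG, the promoters of the members were searched for it. RefSeq promoter sequences of the build GRCm38.p6, from 250 bases before to 50 bases after the start of the gene, were matched by symbol for 35 of the 42 members. Those without an entry were Npm1, Tcof1, Fbl, Rrp12, Bop1, Gnl2 and Rrs1. CACGTG, which reads the same on both strands, was found in 6 of the 35 genes, or 17.1%, and in 8.09% of all 27025 genes with an entry. The related CACGCG, searched on both strands as CACGCG or CGCGTG, was found in 12 of 35, or 34.3%, and in 10.5% of all genes. The 2 motifs cannot share letters with each other, but CACGCG and CGCGTG can, as they did in Mybbp1a. Mybbp1a and Pes1 held both motifs. A match is a string of letters in a window and does not show that C-Myc binds there. These are windows of 30 bases, 5′ to 3′ on the strand of the gene, for the 6 genes with CACGTG and for 3 of the genes with CACGCG that were called lower after C-myc deletion, with the motif in capitals.
Nop2, chr6:125131811-125131840, plus strand: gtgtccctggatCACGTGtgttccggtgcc
Utp18, chr11:93885769-93885798, minus strand: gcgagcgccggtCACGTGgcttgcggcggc
Pes1, chr11:3963965-3963994, plus strand: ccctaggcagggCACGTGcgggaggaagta
Wdr43, chr17:71616220-71616249, plus strand: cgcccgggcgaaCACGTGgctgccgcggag
Utp20, chr10:88826765-88826794, minus strand: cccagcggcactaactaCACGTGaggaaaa
Mybbp1a, chr11:72441347-72441376, plus strand: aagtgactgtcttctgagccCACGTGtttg
Nolc1, chr19:46075810-46075839, plus strand: gcaggatgatgaCGCGTGtgggaccggaag
Nhp2, chr11:51619764-51619793, plus strand: ggaggcggcggcCGCGTGgttcctctatgc
Ddx21, chr10:62602249-62602278, minus strand: tgtcgccctctctcctagCACGCGgttgag

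The motif began 60 bases before the start of the gene in Nop2, 20 before in Utp18 and 25 before in Nolc1. In the other windows it lay past the start, at base 3 in Pes1, 18 in Wdr43, 38 in Utp20, 41 in Mybbp1a, 4 in Nhp2 and 39 in Ddx21, counted from 1 at the start. The start meant here is that of the promoter sequences, which can differ from the start in GENCODE vM21. Wdr43, for example, starts there at 71615895, before its whole promoter window from 71615965 to 71616264. The 6 genes with CACGTG did not behave alike after C-myc deletion in CD122+T-bet- cells. Mybbp1a was called lower, with a log2 ratio of -1.83 (-2.49 to -1.24). Wdr43, at -1.52 (-2.18 to -0.93), and Pes1, at -1.37 (-2.26 to -0.59), overlapped C-myc fl/fl library 4. Utp20, Utp18 and Nop2 had under 50 transcripts, and Utp20 gave 27 transcripts in the deleted against 14 in the intact cells. The members called lower without either motif in these windows included Ncl, Nop56, Nop58, Dkc1 and Gar1, from which nothing follows about C-Myc at these genes.

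In CD122- cells the libraries of the same genotypes were not apart. The set was at 6149 CPM in the C-myc D/D Cd4 cells, with libraries at 4479 and 7219 CPM, and at 5685 CPM in the C-myc fl/fl cells, with libraries from 2391 to 8194 CPM, so the libraries overlapped widely. The log2 ratio was 0.11 and turned to -0.34 without C-myc D/D Cd4 library 2 and to -0.16 without C-myc fl/fl library 2. Of 32 members tested, 0 were higher and 0 were lower, while 25.1% and 1.14% of all 3677 genes tested were. The median log2 ratio was 0.19 over the members and 0.46 over all genes tested. Relative to the median of genes with at least 100 transcripts, which was 0.45, the log2 ratio of the set was -0.34. Npm1 was at 1161 and 1800 CPM against 2618, 549, 2522 and 1415 CPM, and Ncl at 897 and 1496 CPM against 1498, 279, 1277 and 695 CPM. Nop10 had the lowest ratio among tested members, at 53.5 and 96.5 CPM against 189, 65.1, 205 and 104 CPM, a log2 ratio of -0.84 (-1.32 to -0.39), and its libraries overlapped. Of the other genes of the pathway, 5 of 54 tested were higher and 2 were lower. Whether the effect of deletion differs between the 2 populations was not tested. Genes of CD4+CD8+ thymocytes, 6 of 6 listed and none at 0, summed to 446 to 535 CPM in the deleted and 214 to 342 CPM in the intact CD122- libraries, against 0 to 41.5 CPM in the CD122+T-bet- libraries of both genotypes.

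Cells with and without transcripts of the cell cycle were then separated, since the share of such cells differed between groups. Every cell was thinned to 2000 transcripts, and a cell counted as having cell cycle transcripts where at least 2 of them were of the S phase or G2 and M phase list, none of which is a member. They made up 54.7% of the C-myc D/D Cd4 and 83.6% of the C-myc fl/fl CD122+T-bet- cells, and 44.5% and 46.7% of the CD122- cells. In each of the 28 sets of cells from 1 library and 1 population, the ribosome biogenesis genes were higher in cells with cell cycle transcripts than in those without. The size of the gap differed widely. In the TBGR genotype the log2 ratio within a library was between 0.19 and 0.63, while in the C-myc fl/fl genotype it was between 0.66 and 3.64. Over whole groups the gap was largest in CD122- cells of both 2-week genotypes, where the set stood at 9806 CPM in C-myc fl/fl and 9746 CPM in C-myc D/D Cd4 cells with cell cycle transcripts, and at 1502 and 1431 CPM in those without. Ribosomal protein genes made up 9.83% and 9.19% of transcripts in the former, and 2.51% and 2.33% in the latter. The T cell list summed to 1113 and 1310 CPM in the former, and 525 and 942 CPM in the latter. In TBGR CD122- cells with and without cell cycle transcripts, these were 8.93% and 8.10%, and 1420 and 1444 CPM. The part of these differences in the gap was not tested.

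**Figure D4:**
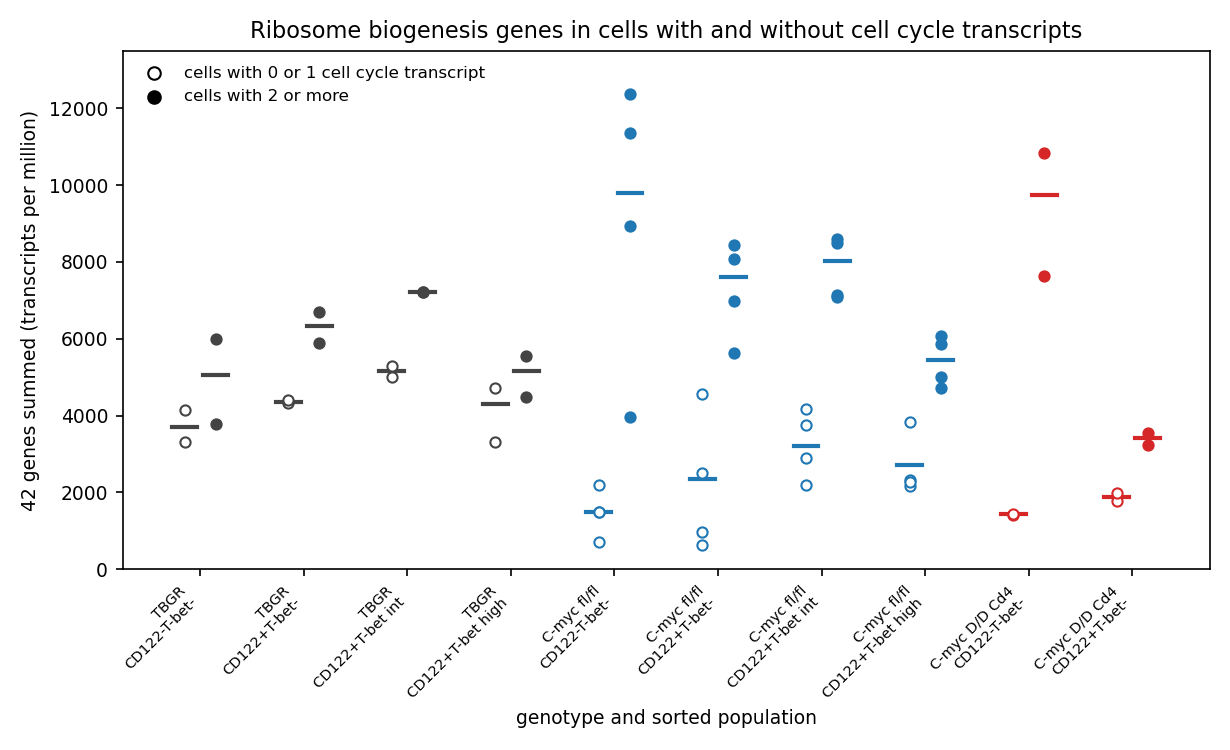
Summed level of the 42 genes in CPM (y axis) in cells with 0 or 1 (open) and with 2 or more (filled) cell cycle transcripts, by genotype and population (x axis); each point is 1 library and bars are the level over all such cells. Filled points reach 12386 in C-myc fl/fl CD122- cells and stay at 3246 and 3555 in C-myc D/D Cd4 CD122+T-bet- cells.

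Within each kind of cell the deletion could be set beside the intact genotype. The split rests on at least 2 cell cycle transcripts and does not match how many of them a cell held. Over all CD122+T-bet- cells of both kinds, the cell cycle list summed to 1595 CPM in deleted and 5463 CPM in intact cells. Its level among only the cells with such transcripts is not given here. In CD122- cells the log2 ratio was -0.01 (-0.07 to 0.05) with and -0.07 (-0.25 to 0.11) without cell cycle transcripts. In CD122+T-bet- cells with cell cycle transcripts it was -1.15 (-1.24 to -1.07), from 3416 CPM in 75 deleted and 7602 CPM in 102 intact cells. The deleted libraries there, at 3246 and 3555 CPM, lay below the intact ones, at 5630.1 to 8437 CPM. Among the CD122+T-bet- cells without cell cycle transcripts the log2 ratio was -0.31 (-0.53 to -0.08), from 1891 CPM in 62 deleted and 2345 CPM in 20 intact cells. Here the libraries overlapped, at 1773 and 1979 CPM against 629 to 4571 CPM, and 1 intact library held only 1 such cell.

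In the median cell the set stood at 2492 CPM in deleted and 6368 CPM in intact CD122+T-bet- cells, with quartiles of 1621 and 3658 CPM and of 3520 and 9035 CPM. Above 10000 CPM lay 1 of 137 deleted and 22 of 122 intact cells. In CD122- cells the medians were 2143 and 1970 CPM, with 14 of 128 deleted and 19 of 120 intact cells above 10000 CPM. Both medians lay far below the levels of the summed cells, 6149 and 5685 CPM.

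The gain of CD122 was compared in each genotype as CD122+T-bet- over CD122- cells. In the TBGR genotype the set rose from 4136 to 5933 CPM (log2 ratio 0.52, interval 0.47 to 0.57), and the libraries did not overlap. Of 38 members tested, 13 were higher and 0 lower, against 25.7% higher and 6.71% lower among all 6531 genes tested. The median log2 ratio was 0.47 over members and 0.26 over all genes tested. Relative to the median of genes with at least 100 transcripts, 0.28, the log2 ratio of the set was 0.24. It was 0.29 without CD122- library 2 and 0.78 without CD122- library 1. Nhp2 had the largest ratio, from 49.6 and 18.1 to 112 and 72.1 CPM, followed by Nop58, from 138 and 131 to 306 and 281 CPM, Ebna1bp2, a large subunit factor, from 57.9 and 20.1 to 76.1 and 77.8 CPM, and Nop10, from 78.6 and 44.3 to 103 and 111 CPM. The others were Wdr43, Pes1, Ddx10, Mybbp1a, Ncl, Pa2g4, Nolc1, Ftsj3 and Polr1c, with log2 ratios of 0.60 to 0.77. Of these 13, Nhp2 and Nop58 were past a ratio of 2, for which the share of all genes is not given. Npm1 was at 856 and 840 CPM in CD122- cells and at 1250 and 1120 CPM in CD122+T-bet- cells, without overlap but under a ratio of 1.5. Of the other genes of the pathway, 28 of 96 tested were higher and 3 lower, and 8 of the 10 RNA exosome genes tested were among those higher. Ribosomal protein genes made up 7.73% and 9.02% of transcripts in CD122- and 11.7% and 12.3% in CD122+T-bet- libraries, and the cell cycle list summed to 738 and 3364 CPM. The thymocyte list summed to 604 to 759 CPM in CD122- and 72.1 to 96.7 CPM in CD122+T-bet- libraries, where Rag1 and Rag2 were at 0. The myeloid or dendritic cell list, with Itgax at 0 in both, summed to 70.3 to 117 CPM in CD122- and 210.5 to 384 CPM in CD122+T-bet- libraries, and the regulatory T cell list to 0 to 41.3 CPM and 24.5 to 136 CPM. Cells with cell cycle transcripts made up 30.5% of the CD122- and 76.9% of the CD122+T-bet- cells. The log2 ratio of the set was 0.24 among cells without and 0.32 among cells with such transcripts, against 0.52 over all cells. The part of the marker lists and the ribosomal protein genes in the result was not tested.

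In the C-myc fl/fl genotype both populations were in each of 4 libraries, and a gene was called where the sign was the same in every library. The set was at 5685 CPM in CD122- and 6924 CPM in CD122+T-bet- cells, but the log2 ratio within the libraries was -0.10, 1.53, 0.01 and -0.22, and without library 2 it was 0.01 in place of 0.28. Without library 1 it was 0.46, and relative to the median of genes with at least 100 transcripts, 0.55, it was -0.26. Of 34 members tested, 6 were higher and 0 lower, against 26.6% and 3.77% of all 3662 genes tested. The 6 were Bop1, Wdr75, Rrs1, Ddx21, Nolc1 and Nop10, with log2 ratios of 0.65 to 1.15. Without library 4, 8 of 30 were higher, while 36.1% of all genes tested were. Of the 13 members called higher in the TBGR genotype and the 6 in the C-myc fl/fl genotype, Nop10 and Nolc1 were called in both. How many of all genes were called in both genotypes is not given here, so no agreement is read from this. Of the other genes of the pathway, 10 of 55 tested were higher and 0 lower.

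In the C-myc D/D Cd4 genotype the same comparison went the other way. The set fell from 6149 to 2737 CPM (log2 ratio -1.17, interval -1.24 to -1.09), with libraries at 4479 and 7219 CPM in CD122- and 2607 and 2838 CPM in CD122+T-bet- cells. Of 27 members tested, 14 were lower and 0 higher, against 14.4% lower and 23.7% higher among all 4211 genes tested. Dkc1, Nhp2, Pa2g4, Npm1, Nop56, Nolc1, Gnl3, Ncl, Fbl, Wdr43, Nop58, Ddx18, Tcof1 and Bop1 were lower, with log2 ratios from -1.97 for Dkc1 to -0.78 for Bop1. This comparison shares its CD122+T-bet- cells with that of the genotypes above. It depended on which cells were counted: among cells without cell cycle transcripts the log2 ratio was 0.40, from 1431 to 1891 CPM, and as the mean of the shares of the cells it was -0.46. Without CD122- library 2 it was -0.71. Of the other genes of the pathway, 13 of 53 tested were lower and 2 higher.

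The gain of T-bet was compared as T-bet int over CD122+T-bet- cells. The set changed little. In the TBGR genotype it rose from 5933 to 6852 CPM (log2 ratio 0.21, interval 0.16 to 0.25), and the libraries did not overlap. All 42 members were tested, and 1 was higher and 0 lower, against 9.46% and 11.7% of all 7063 genes tested. This was Nop10, which rose from 103 and 111 to 168 and 153 CPM. In the C-myc fl/fl genotype the set was at 7342 against 6924 CPM, a log2 ratio of 0.08 (0.03 to 0.14), and the libraries overlapped. Of 35 members tested, 2 were higher and 0 lower, against 1.45% and 0.427% of all 4217 genes tested. These were Nip7 and Gnl2, both factors of the large subunit, with log2 ratios of 0.60 and 0.62 and 75 and 54 transcripts in the T-bet int cells. Of the other genes of the pathway, 6 of 102 tested were higher and 8 lower in the TBGR genotype, and 0 of 69 in either direction in the C-myc fl/fl genotype.

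From T-bet int to T-bet high cells the set fell in both genotypes. In the TBGR genotype it went from 6852 to 4739 CPM (log2 ratio -0.53, interval -0.59 to -0.47), and the libraries did not overlap. Of 38 members tested, 16 were lower and 0 higher, against 22.1% lower and 12.7% higher among all 5833 genes tested. Library 2 of the TBGR T-bet high sort stood apart. It had 55 passing cells against 92 in library 1, and its empty wells had the highest median of any library, 105.5 transcripts. The thymocyte list summed to 266 CPM in it and to 33.9 CPM in library 1, with Rag1 at 137 against 4.24 CPM, Dntt at 77.1 against 0 CPM and Ptcra at 34.3 against 0 CPM. Without it the log2 ratio of the set was -0.42, and, by a choice made after seeing the data, 12 members were lower and 3 higher, with 23.3% of all genes tested lower and 18.1% higher. Those 3 were Polr1a, Wdr12 and Nop2. In the C-myc fl/fl genotype the set went from 7342 to 4611 CPM (log2 ratio -0.67, interval -0.73 to -0.61), with -0.55, -0.98, -0.48 and -0.59 within the 4 libraries. Of 35 members tested, 13 were lower and 0 higher, against 11.4% lower and 4.69% higher among all 3987 genes tested. The median log2 ratio was -0.52 and -0.62 over the members and -0.11 and -0.18 over all genes tested. Relative to the median of genes with at least 100 transcripts, -0.13 and -0.18, the log2 ratios of the set were -0.40 and -0.49. The 2 genotypes share no sample in this comparison.

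With all libraries, 16 members were lower in the TBGR and 13 in the C-myc fl/fl genotype. Lower in both were Nop56, Nop58, Nop10, Nolc1, Gnl3, Ebna1bp2, Nhp2, Ddx10, Gar1 and Utp18. Without TBGR T-bet high library 2, Nop56, Gnl3, Utp18 and Ncl were no longer called in the TBGR genotype. Nop56, Gnl3 and Utp18 were then not shared. How many of all genes were called in both genotypes is not given here, so no agreement is read from this list. Nolc1 was among the most changed, in the TBGR genotype at 153 and 133 CPM before and 63.6 and 68.5 CPM after the step, and at 180.1, 238, 112 and 165 CPM against 90.7, 65.2, 55.0 and 75.1 CPM in the C-myc fl/fl genotype. Its libraries did not overlap in either genotype. Ncl, Pa2g4, Dkc1, Ddx18, Rrs1 and Wdr75 were called in the TBGR genotype and not in the C-myc fl/fl genotype, where their log2 ratios were -0.73 to -0.40. Npm1, Mybbp1a and Nip7 were called in the C-myc fl/fl genotype and not in the TBGR genotype, where they had log2 ratios of -0.56, -0.58 and 0.20. Whether any of these 9 genes differed between the genotypes was not tested. None of the RNA polymerase I genes tested, 4 in the TBGR genotype and 3 in the C-myc fl/fl genotype, was called in either. Their sum had a log2 ratio of -0.03 (-0.25 to 0.18) in the TBGR and -0.47 (-0.76 to -0.19) in the C-myc fl/fl genotype, against -0.67 (-0.75 to -0.58) and -0.69 (-0.77 to -0.60) for the scaffold and growth genes. Of the other genes of the pathway, 21 of 87 tested were lower and 3 higher in the TBGR genotype, and 16 of 59 lower and 0 higher in the C-myc fl/fl genotype.

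**Figure D5:**
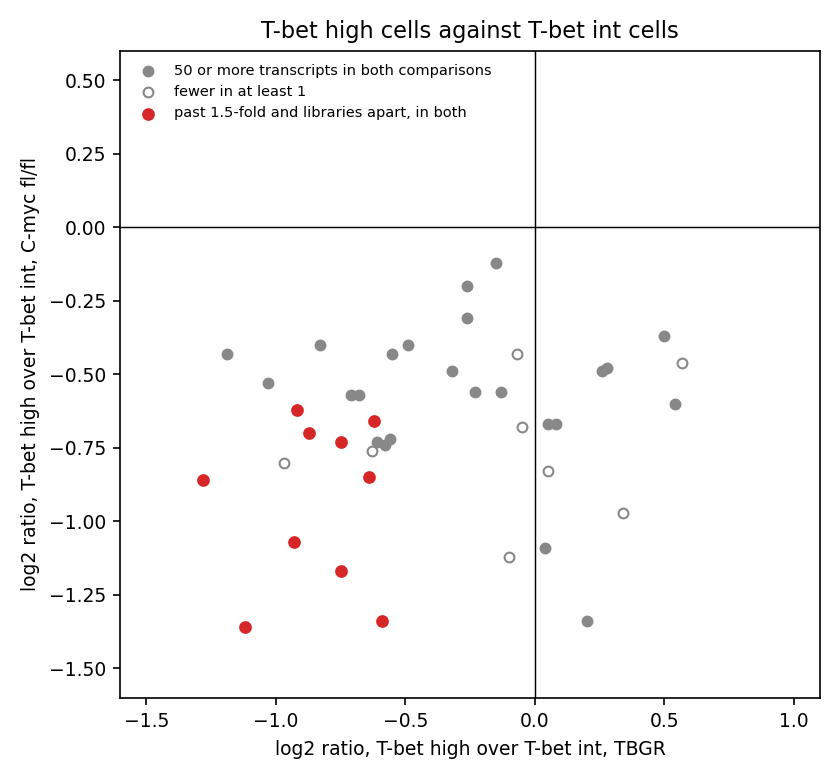
Log2 ratio of each gene, T-bet high over T-bet int cells, in the TBGR genotype (x axis) and in the C-myc fl/fl genotype (y axis). Filled points have at least 50 transcripts in both comparisons, and red ones are the 10 genes called lower in both with all libraries. None of the 42 genes lies above 0 on the y axis.

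The ribosomal protein genes did not follow the members at this step in the TBGR genotype, with 15.6% of transcripts in T-bet int and 16.3% in T-bet high cells. In the C-myc fl/fl genotype they were lower in T-bet high than in T-bet int cells within each library. Their ranges over the libraries there, 7.36% to 13.3% in T-bet int and 6.48% to 11.4% in T-bet high cells, overlapped. The cell cycle list in the TBGR genotype summed to 5398 CPM before and 1166 CPM after the step, and to 5416 and 4676 CPM in the C-myc fl/fl genotype. Among cells without cell cycle transcripts the log2 ratios of the set were -0.26 and -0.24. Cells of the T-bet high gate held 22.7 and 28.8 transcripts of the set on average, against 51.8 and 53.8 in the T-bet int gate. Genes of NKT cells, 2 of 2 listed and none at 0, summed to 484 to 645 CPM in the TBGR T-bet high libraries and 57.6 to 115 CPM in the T-bet int libraries, and to 75.1 to 132 CPM and 37.3 to 85.8 CPM in the C-myc fl/fl genotype. The myeloid or dendritic cell list summed to 210 to 371 CPM in T-bet high and 416 to 435 CPM in T-bet int libraries of the TBGR genotype, and to 448 to 782 CPM and 209 to 402 CPM in the C-myc fl/fl genotype, with Csf1r at 0 in the T-bet high cells of both. The regulatory T cell list was at most 15.8 CPM in each of these libraries. Their part in the result was not tested.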

How the data were processed

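Single sorted cells were measured by CEL-Seq2. Per the study's methods and the processing notes, the authors aligned reads with BWA 0.6.2-r126 to GENCODE VM9 transcripts in sense direction, discarded reads with several matches, merged overlapping loci, counted molecular identifiers of 6 bases per gene and cell and converted them to transcripts by binomial statistics. The deposited values are expected counts of transcripts (estimated counts, not scaled between cells), and they were rounded here to whole transcripts. Cells were grouped by the deposited list of well types, which names the sorted population. Cells with a type and at least 2000 transcripts, mitochondrial and spike-in genes left out, were kept. Each well was meant to hold 1 cell, no doublet caller was run, and no passing cell had over 2% Kcnq1ot1.

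Transcripts were summed over the cells of a population, divided by all transcripts of these cells and multiplied by 1000000 (CPM), with exact 95% Poisson intervals that cover counting error only. Before a log2 ratio, each sum was raised by 0.5 transcripts. No test was run and no p-value is given, since no source used here ties a library to an animal. A gene was called at a ratio of at least 1.5 with libraries that did not overlap or, where each library held both populations, with the same sign in every library, among genes with at least 50 transcripts over both groups. The share of all such genes is given beside each count by this rule, except for members called in both genotypes. Counts at a ratio of 2, with at least 100 transcripts or with overlap allowed have no such share beside them. Pathway and marker lists were written down by function. A result that needs 1 of the listed marker genes is not reported here. The members and lists were chosen with earlier results of these data known. Named with values were the 12 best-counted members, the best-counted member of each role and the members called. Other genes named were chosen after their values were seen. Alternatives were other minimums and ratios, thinning to 2000 transcripts, the mean of the shares of the cells, cells with or without cell cycle transcripts and leaving out each library. Cells with cell cycle transcripts as the only cells, transcripts per cell counts of calls without C-myc fl/fl library 4 or TBGR T-bet high library 2 and the deletion without cells that held a transcript of Cd79a, Cd79b or Ms4a1 were added after seeing the data. The number of columns that belonged to other samples was 0. The steps were tested on simulated data. Python 3.11.15, numpy 2.4.6, pandas 2.3.3, scipy 1.17.1 and matplotlib 3.10.9 were used.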

Additional observations from a re-analysis of the deposited data

Results flagged for a closer look

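Pa2g4 in C-myc fl/fl CD122+T-bet- cells was at 117 CPM in library 4 and at 258 to 286 CPM in the other 3 libraries, a gap of 0.837 of the whole range. Such gaps were looked for in 68 series of 4 libraries, those of 16 members and of the set in 4 groups, and chance gives about 1 in 20. Library 4 also had fewer transcripts per cell than the others.

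The set had a log2 ratio of CD122+T-bet- over CD122- cells of -1.17 in the C-myc D/D Cd4 genotype and 0.52 in the TBGR genotype. Every CD122+T-bet- library lay below both CD122- libraries in the former and above them in the latter. The difference was not tested, and the 2 differ in age as well as genotype.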

How the results depend on the processing

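No paired analysis was possible because, between separate libraries, the numbers follow accession order, and no result comes from a test; where C-myc fl/fl libraries held both populations, the ratio within each library stands in the report. Among cells without cell cycle transcripts the log2 ratio of the set was 0.40 for the CD122 step in the C-myc D/D Cd4 genotype, where it was -1.17 over all cells, so its direction turned. The CD122 step in the TBGR genotype was 0.24 among cells without and 0.32 among cells with cell cycle transcripts, against 0.52 over all cells. The ratio without cell cycle transcripts was -0.31 after C-myc deletion in CD122+T-bet- cells, and -0.26 and -0.24 for the T-bet high step in the TBGR and C-myc fl/fl genotypes. The CD122 step in the C-myc D/D Cd4 genotype was -0.46 as the mean of the shares of the cells and -0.52 with cells thinned. Per cell in place of CPM, the CD122 step in the TBGR genotype was 1.01, and the T-bet high step was -1.19 in the TBGR and -0.90 in the C-myc fl/fl genotype. Leaving out 1 library at a time gave, for C-myc deletion, -1.43 to -1.28 among CD122+T-bet- cells. Among CD122- cells it gave -0.34 (without C-myc D/D Cd4 library 2) to 0.35. The CD122 step ranged from 0.29 (without CD122- library 2) to 0.78 (without CD122- library 1) in the TBGR, 0.01 (without library 2) to 0.46 (without library 1) in the C-myc fl/fl and -1.40 to -0.71 (without CD122- library 2) in the C-myc D/D Cd4 genotype. The T-bet int step ranged from 0.13 to 0.30 and from -0.01 (without T-bet- library 4) to 0.15, and the T-bet high step from -0.78 (without T-bet high library 1) to -0.42 (without T-bet high library 2) and from -0.73 to -0.54, in the TBGR and C-myc fl/fl genotypes. At a ratio of 2, members called fell to 2 of 13 and 1 of 6 for the CD122 step and to 4 of 16 and 5 of 13 for the T-bet high step, in the TBGR and C-myc fl/fl genotypes. With at least 100 transcripts, 3 members were called for the CD122 step in the C-myc fl/fl genotype. Without T-bet high library 2, 12 members were lower and 3 higher at the T-bet high step in the TBGR genotype. With overlap allowed, 6 members were higher and 2 lower after deletion in CD122- cells. The shares of all genes at a ratio of 2, with at least 100 transcripts or with overlap allowed are not given here. No result about the members is therefore read from those counts. Depth limits the members under 50 transcripts, which were not called either way.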
